A study of Mus musculus with 9 samples.

Results

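The 6 genes described here, Ifnar1, Ifnar2, Ifngr1, Ifngr2, Il10ra and Il10rb, encode the chains of the receptors for type I interferon, interferon-gamma and interleukin-10, and were chosen by name. They are 6 of 23279 gene rows in the deposited tables, and all 6 were among the 10878 genes with enough signal to test (a mean of at least 1 raw FPKM over the libraries). The data are polyadenylated RNA profiles of pro-B cells, an early B cell stage, grown from mouse marrow: 9 libraries, 3 per genotype. The mice were 6 to 8 weeks old, and colonies were grown for 7 days in methylcellulose with interleukin-7, the growth factor of early B cells, then pooled. The wild-type group is labelled as littermates, with no strain given. The HMGN1 group overexpressed Hmgn1, which encodes a nucleosome-binding protein, on C57BL/6. The labels do not name the promoter that drives the extra Hmgn1. The Ts1Rhr group, on an FVB × C57BL/6 F1 background, carries an extra copy of a chromosome 16 segment that starts at Cbr1 and includes Hmgn1. Strain and genotype therefore cannot be told apart between the 2 mutant groups, and may differ from wild type as well. The labels call the samples biological replicates without naming the animals, so a p-value speaks of the spread among these samples, part of which may be technical. Y-linked transcripts and Xist, given below, set Ts1Rhr replicate 3 apart from the other libraries.

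All 6 proteins belong to the class II cytokine receptor family and work in pairs: 1 chain that binds the ligand firmly and 1 that completes the signalling complex. Ifnar2 is the high-affinity chain for type I interferon and Ifnar1 its partner. Ifngr1 binds interferon-gamma and Ifngr2 completes that receptor. Il10ra binds interleukin-10, and Il10rb is the partner chain, which is also shared with the receptors for interleukin-22 and interferon-lambda. The chains carry the kinases JAK1, JAK2 or TYK2, which phosphorylate STAT proteins, and interferons are known to restrain early B cell growth. Ifnar2, Il10rb, Ifnar1 and Ifngr2 lie side by side in that order on mouse chromosome 16, and their human counterparts lie on the chromosome that is trisomic in Down syndrome. In the mouse RefSeq order, 14 tested genes separate Ifngr2 from Cbr1, so the receptor cluster lies outside the segment that is extra in Ts1Rhr. Ifngr1 lies on chromosome 10 and Il10ra on chromosome 9. These genes thus let the cultures be compared for genes near, but not in, the extra segment.

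Start-site windows of 3 of the 4 clustered genes are printed to show how unlike these neighbours are, since they sit in 1 row and are compared with each other below. They are RefSeq sequences of GRCm38.p6, 5′ to 3′ on the plus strand, 250 bases before to 50 after the start, and 4 of the 6 members matched that table. Capitals mark the GC box GGGCGG on either strand, a match of letters and not a proven site. The windows are chr16:91372533-91372832 for Ifnar2, chr16:91484965-91485264 for Ifnar1 and chr16:91546809-91547108 for Ifngr2.
Ifnar2: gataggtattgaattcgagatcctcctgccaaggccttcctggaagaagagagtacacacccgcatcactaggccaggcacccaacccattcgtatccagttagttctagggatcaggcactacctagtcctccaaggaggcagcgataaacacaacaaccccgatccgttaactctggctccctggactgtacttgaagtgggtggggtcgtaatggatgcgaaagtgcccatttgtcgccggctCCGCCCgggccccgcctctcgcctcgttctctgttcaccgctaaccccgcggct
Ifnar1: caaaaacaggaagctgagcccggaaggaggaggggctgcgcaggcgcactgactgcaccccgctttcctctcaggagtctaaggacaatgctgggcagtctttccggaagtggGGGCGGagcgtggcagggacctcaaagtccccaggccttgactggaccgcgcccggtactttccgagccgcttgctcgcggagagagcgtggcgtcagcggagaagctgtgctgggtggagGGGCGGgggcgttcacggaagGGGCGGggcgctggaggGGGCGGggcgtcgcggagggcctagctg
Ifngr2: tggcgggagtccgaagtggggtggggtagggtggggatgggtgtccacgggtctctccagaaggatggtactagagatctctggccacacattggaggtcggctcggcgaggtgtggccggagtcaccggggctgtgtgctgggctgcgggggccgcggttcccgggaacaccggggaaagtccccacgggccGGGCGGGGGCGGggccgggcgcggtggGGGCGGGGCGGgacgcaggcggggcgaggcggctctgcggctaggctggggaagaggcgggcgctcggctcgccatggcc

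The Ifnar2 window held 1 GC box and 57% G and C, against 4 boxes and 68.3% for Ifnar1 and 4 boxes, some overlapping, and 74.3% for Ifngr2. The fourth matched member, Ifngr1, held 2 boxes and 60.3% (chr10:19591699-19591998, plus strand). At least 1 box was found in 35.7% of 32851 RefSeq windows of this length, whose median G and C content was 52.7%. The gamma-activated sequence TTCNNNGAA occurred once each in the Ifnar1 and Ifnar2 windows and in 8.3% of all windows. The interferon-stimulated response element (GAAA, any 2 bases, GAAA; 3.44% of all windows) and the PU.1 site GAGGAAGT (3.2%) were not among the letters of any of the 4 windows, both strands searched.

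Values are FPKM, fragments counted per kilobase of a gene's transcript and scaled to library size, so levels of different genes can be set side by side. The deposited raw table and the further normalised table were both used, because the latter carries a larger spread within groups. Library medians of log2 values over tested genes ran from 3.66 to 3.69 on raw FPKM. On normalised FPKM they ran from 3.39 (wild-type replicate 3) to 4.09 (HMGN1 replicate 2). Summed raw FPKM ran from 447460 to 591233 per library, and sequencing depth is unknown from these tables. In wild-type replicate 1 the top 10 genes took 23.1% of the raw FPKM, against at most 18.1% elsewhere. Ts1Rhr replicate 3 was the only library with clear Y-linked transcripts (Ddx3y 41.8 raw FPKM) and had Xist at 0.443, against 94.2 to 193 in the others. Over all genes, the raw FPKM calls in Ts1Rhr against wild type fell from 963 to 1 without wild-type replicate 1 and to 1 without Ts1Rhr replicate 3. Every raw FPKM call in that comparison of a listed gene named below, Hmgn1 included, was lost without either library, with its direction kept. On normalised FPKM the calls over all genes fell from 62 to 5 without Ts1Rhr replicate 2 and to 4 without wild-type replicate 3. Every normalised FPKM call of a listed gene in Ts1Rhr against wild type was lost in both of those fits, again with its direction kept. As a check of the labels, Hmgn1 stood at 127, 125 and 126 raw FPKM in Ts1Rhr against 60.2, 67.3 and 58.5 in wild type, a 2.04-fold difference (adjusted p = 0.00923 on raw FPKM, 0.0909 on normalised FPKM). In the HMGN1 libraries Hmgn1 read 77.2, 71.9 and 73.4, all above wild type but 1.2-fold and not past the test on raw FPKM (adjusted p = 0.345). All 13 pro-B cell markers were tested, with sums of 932 to 1801 raw FPKM. The cultures also held macrophage and monocyte RNA in every library, which is taken up beside Il10rb. Markers of T and NK cells stayed low, with sums of 16.6 to 32.9 raw FPKM over 10 genes.

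All 6 receptor genes were clearly expressed in every library. In wild type the order by mean raw FPKM was Il10rb (89.1 ± 14.6, SD, n = 3), Ifngr1 (81.1 ± 1.16), Ifnar2 (59.1 ± 6.55), Ifngr2 (46.0 ± 5.09), Il10ra (30.5 ± 0.351) and Ifnar1 (20.6 ± 0.770). Il10rb and Ifngr1 overlapped, with Il10rb the higher in 2 of 3 libraries, and every other neighbouring pair in the order was separate. Among all tested genes these means fell between the 62.1st percentile (Ifnar1) and the 90.0th (Ifngr1), taken over the 9 libraries. In the HMGN1 libraries Ifngr1 (70.8 ± 10.4) and Il10rb (70.3 ± 10.1) led with overlapping ranges, and the order of the rest was that of wild type. In Ts1Rhr Il10rb had moved to the third place (50.9 ± 7.73), behind Ifngr1 (65.8 ± 10.9) and Ifnar2 (53.3 ± 8.99) and ahead of Ifngr2 (40.4 ± 3.72), and these 4 overlapped each with the next. Il10ra and Ifnar1 were the lowest pair in all 3 groups. Ifnar1 varied least over the 9 libraries, with a coefficient of variation of 7.03%, and Il10rb most, with 27.3%.

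**Figure D1:**
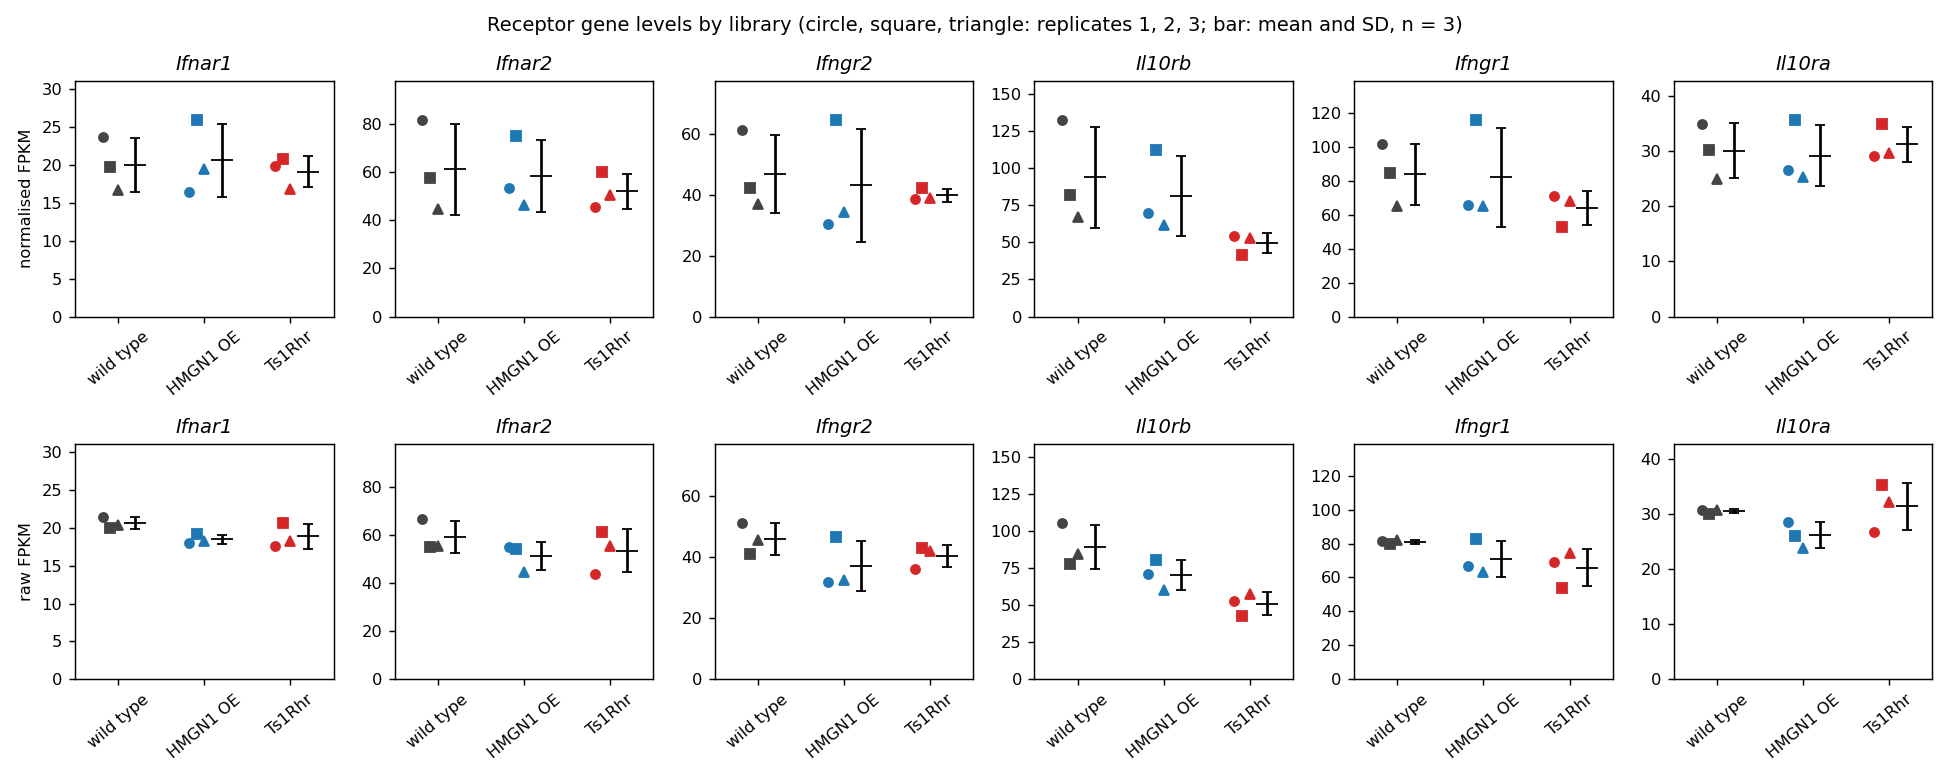
Levels of the 6 receptor genes in each of 9 libraries, as normalised FPKM (upper row) and raw FPKM (lower row), by group, with circle, square and triangle for replicates 1, 2 and 3 and bars for mean and SD (n = 3). All 3 Ts1Rhr libraries lie below every wild-type and HMGN1 library for Il10rb in both rows, while Ifnar1, Ifnar2, Ifngr2 and Il10ra overlap between Ts1Rhr and wild type.

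The comparison of Ts1Rhr with wild type asks whether the extra chromosome 16 segment goes with altered receptor RNA, though strain may differ between these groups as well. Il10rb was the member that stood out: it was lower in Ts1Rhr, at 0.548 of the wild-type level by normalised FPKM and 0.572 by raw FPKM. The difference was called on raw FPKM but not on normalised FPKM. The 3 cluster neighbours and Il10ra did not pass the test on either table. No member was higher in Ts1Rhr beyond the test.

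For Il10rb the normalised FPKM were 132, 81.6 and 67.2 in wild type replicates 1 to 3, and 54.4, 41.7 and 52.6 in Ts1Rhr. The raw FPKM were 105, 77.3 and 84.5 in wild type and 52.5, 42.5 and 57.7 in Ts1Rhr. The lowest wild-type library thus exceeded the highest Ts1Rhr library on both scales, and wild-type replicate 1 was the highest of all. On normalised FPKM the log2 fold change was -0.87 (SE 0.30, 95% interval -1.50 to -0.24; limma, unadjusted p = 0.00977, adjusted p = 0.144). On raw FPKM it was -0.80 (SE 0.17, interval -1.19 to -0.42; adjusted p = 0.0325), and Il10rb fell by that test. Of the 10878 genes tested, 0.57% were called on normalised FPKM in either direction and 8.85% on raw FPKM (4.56% lower), so the members' counts of 0 of 6 and 1 of 6 are to be read against those shares. Groups without overlap and lower in Ts1Rhr made up 8.43% of genes by normalised FPKM and 18.5% by raw FPKM. The Il10rb fold change sat at the 3.69th percentile of all genes on the former scale and the 6.31st on the latter.

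The Il10rb call on raw FPKM held without wild-type replicate 2 (adjusted p = 0.0450) or any 1 HMGN1 library (0.0250 to 0.0390). It did not pass without Ts1Rhr replicate 1 (log2 fold change -0.83, adjusted p = 0.0554), replicate 2 (-0.68, 0.107) or replicate 3 (-0.90, 0.0767), nor without wild-type replicate 1 (-0.68, 0.148) or replicate 3 (-0.84, 0.0929). The genes called over the whole table fell from 963 to 293, 3, 1, 1 and 2 in these 5 fits, in that order, and to 535 without wild-type replicate 2. On normalised FPKM it was -0.92 (adjusted p = 0.215) without the Y-positive Ts1Rhr replicate 3 and -0.59 (0.454) without wild-type replicate 1, its smallest size over the left-out libraries. Bringing every library to the same median also gave a call (-1.002, adjusted p = 0.0395).

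The other 3 genes of the cluster showed small differences. Ifnar1, the partner chain of the type I receptor, read 23.7, 19.7 and 16.7 normalised FPKM in wild type and 19.8, 20.8 and 16.8 in Ts1Rhr (log2 fold change -0.06, SE 0.24, adjusted p = 0.921). Ifnar2, its high-affinity chain, read 81.5, 57.4 and 44.5 in wild type and 45.7, 59.9 and 50.4 in Ts1Rhr (-0.20, SE 0.28, adjusted p = 0.719). Ifngr2, the signalling partner of Ifngr1, read 61.1, 42.1 and 36.9 in wild type and 38.4, 42.3 and 38.8 in Ts1Rhr (-0.20, SE 0.29, adjusted p = 0.734). For these 3 genes the Ts1Rhr libraries lay inside or overlapped the wild-type range. Raw FPKM gave -0.13 for Ifnar1, -0.16 for Ifnar2 and -0.18 for Ifngr2, with adjusted p of 0.503, 0.536 and 0.482.

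The 2 members on other chromosomes, Ifngr1 and Il10ra, did not pass the test on either table. Ifngr1, the ligand-binding chain for interferon-gamma, read 102, 84.5 and 65.3 normalised FPKM in wild type and 71.0, 52.6 and 68.1 in Ts1Rhr (log2 fold change -0.38, SE 0.28, adjusted p = 0.463), with overlap. By raw FPKM its 3 wild-type libraries were tight at 81.6, 79.8 and 82.0 and all Ts1Rhr libraries were lower at 69.1, 53.7 and 74.7 (-0.31, SE 0.16, adjusted p = 0.198). Il10ra, the ligand-binding chain for interleukin-10, read 35.1, 30.2 and 25.0 normalised FPKM in wild type and 29.1, 35.0 and 29.7 in Ts1Rhr (0.06, SE 0.24, adjusted p = 0.908).

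Together 5 of the 6 members had a log2 fold change below 0 on both tables, against 40.1% of all genes on normalised and 48.9% on raw FPKM. Scaling by 1 spike-in factor per library put Ifnar1 at 0.04 and Ifnar2 at 0.01, both below the median of all genes in that fit, 0.18. The members' median was -0.20 on normalised FPKM, where the median of all genes was 0.12, and -0.17 on raw FPKM, where it was 0.01. Relative to the median gene, Il10rb was at -0.99 by normalised FPKM and at -0.82 by raw FPKM. The 95% intervals of all 6 members ended below 0.58, the log2 of a 1.5-fold gain, on both tables, and those of 5 of 6 held 0.

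**Figure D2:**
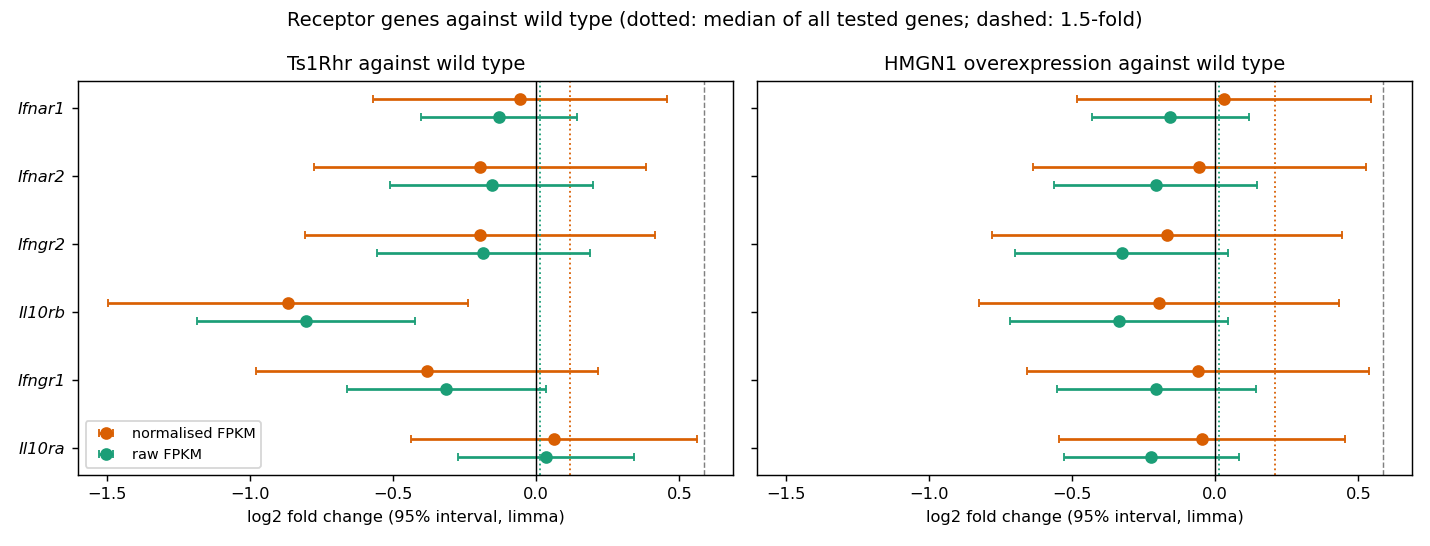
Log2 fold change against wild type with the 95% limma interval for each receptor gene, in Ts1Rhr (left) and HMGN1 libraries (right), for both tables, with the median gene dotted and a 1.5-fold gain dashed. Only the Il10rb intervals in Ts1Rhr lie wholly below 0, and all intervals end left of the dashed line.

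Since both chains are needed for a working receptor, their ratio was compared within each library, which removes any scaling factor of the library. The Il10ra to Il10rb ratio set Ts1Rhr apart from the other groups without overlap, while the groups overlapped for both interferon receptors. The log2 ratio of Il10ra to Il10rb by raw FPKM was -1.78, -1.36 and -1.46 in wild type, -1.31, -1.62 and -1.33 in the HMGN1 libraries, and -0.97, -0.27 and -0.84 in Ts1Rhr. Every Ts1Rhr library was above every other library, with replicate 2 the highest, though Il10rb still exceeded Il10ra in all of them. The difference of Ts1Rhr from wild type was 0.84 (SE 0.25), a 1.79-fold higher ratio, with an exact two-sided permutation p of 0.1, the smallest that 3 libraries against 3 allow, and 0.6 after Benjamini-Hochberg adjustment over the 6 comparisons made (3 ratios in each of 2 mutant groups). By normalised FPKM the ratio was 1.91-fold higher. The log2 ratio differed between the tables within a library (wild-type replicate 1, -1.78 raw and -1.92 normalised). The normalisation was therefore not 1 factor per library, and the ratio does not remove it.

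For the type I interferon receptor the log2 ratio of Ifnar1 to Ifnar2 was -1.63, -1.46 and -1.45 in wild type and -1.30, -1.57 and -1.59 in Ts1Rhr (difference 0.03, SE 0.11, exact permutation p = 0.8). For the interferon-gamma receptor the ratio of Ifngr1 to Ifngr2 was 0.67, 0.96 and 0.84 in wild type and 0.94, 0.32 and 0.82 in Ts1Rhr (-0.13, SE 0.21, exact permutation p = 0.6). In each culture Ifnar2 RNA thus exceeded Ifnar1 RNA and Ifngr1 RNA exceeded Ifngr2 RNA. In the HMGN1 libraries the differences from wild type were 0.05 (SE 0.11) for the type I receptor, 0.12 (SE 0.11) for the interferon-gamma receptor and 0.11 (SE 0.16) for the interleukin-10 receptor, with exact permutation p of 0.8, 0.5 and 0.5.

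**Figure D3:**
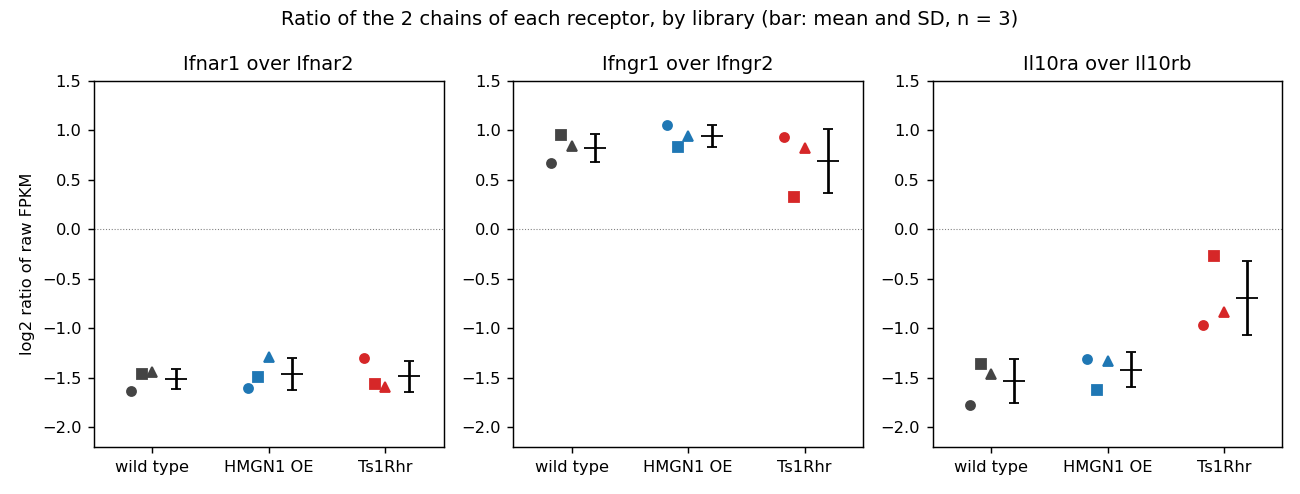
Log2 ratio of raw FPKM between the chains of each receptor in each library, by group, with bars for mean and SD (n = 3) and replicates as circle, square and triangle. The 3 Ts1Rhr libraries sit between -0.97 and -0.27 for Il10ra over Il10rb, above all others, and the groups overlap in the other 2 panels.

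Within the cluster, Il10rb was compared with its own neighbours, a ratio chosen after the values were seen and given without a test. The log2 ratio of Il10rb to the mean of Ifnar1, Ifnar2 and Ifngr2 by raw FPKM was 1.33, 1.12 and 1.18 in wild type, 1.16, 1.14 and 1.01 in the HMGN1 libraries, and 0.79, 0.17 and 0.72 in Ts1Rhr. All 3 Ts1Rhr libraries were below all others, at 0.638 of the wild-type ratio. Since the neighbours differed little, this ratio too mainly restates the Il10rb difference. Ifnar2 and Ifngr2, at the ends of the cluster, kept a ratio to each other that differed by 0.03 on the log2 scale between Ts1Rhr and wild type.

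Beyond the cluster, the chromosome 16 genes around it moved in both directions. Paxbp1, the nearest tested gene before Ifnar2, was at 0.18 (adjusted p = 0.707) and Tmem50b, the nearest after Ifngr2, at -0.28 (adjusted p = 0.604), both log2 fold changes on normalised FPKM. Of 15 tested genes from a list of 19 in this stretch, 7 were higher and 8 lower, none was called on normalised FPKM, and the median was -0.12. On raw FPKM, where 8.85% of all genes were called, 1 rose and 1 fell. Runx1, a transcription factor of blood cell development, rose (0.87, SE 0.19, adjusted p = 0.0325, against 0.0800 on normalised FPKM), and Rcan1, a calcineurin inhibitor, fell (-0.95, SE 0.22, adjusted p = 0.0355, against 0.209). The triplicated segment itself had a median of 0.59 on normalised FPKM over 16 tested genes of 29, with 3 that rose, and of 0.37 on raw FPKM, with 6 that rose. The medians of all genes were 0.12 and 0.01. The 3 normalised FPKM calls were lost without Ts1Rhr replicate 2 or wild-type replicate 3.

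**Figure D4:**
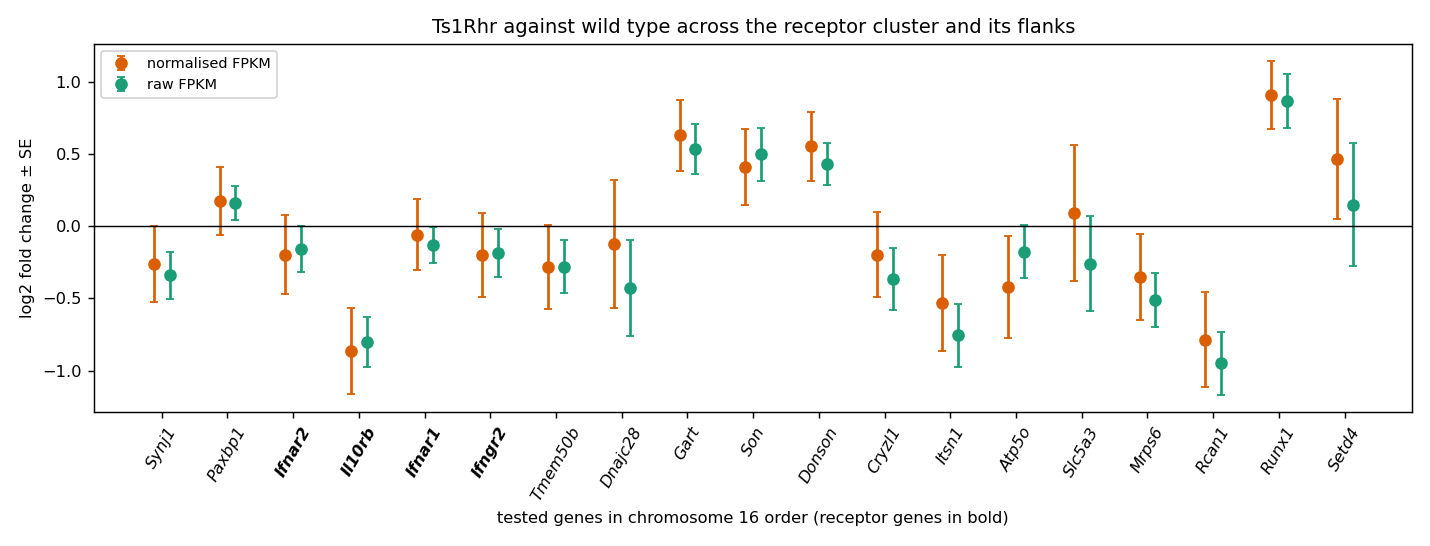
Log2 fold change of Ts1Rhr against wild type, with its SE, for tested genes of the receptor cluster and its flanks in chromosome 16 order, on both tables, with receptor genes in bold. Il10rb lies lower than the 3 receptor genes next to it, while Gart, Son, Donson and Runx1 lie above 0 on both tables and Rcan1 below.

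Macrophages and monocytes are among the cells that express Il10rb, and their markers are set beside it here. All 18 tested markers of 19 listed were lower in Ts1Rhr than in wild type on both tables, with a median log2 fold change of -0.98 on normalised and -0.87 on raw FPKM. Of all genes, 40.1% and 48.9% were lower on these tables, and 4.56% were called lower on raw FPKM. None of the 18 markers passed the test on normalised FPKM, and 8 fell on raw FPKM. Among these were Csf1r, the receptor for a macrophage growth factor (193 ± 25.1 to 90.3 ± 23.8 raw FPKM, mean ± SD, n = 3), and Cd68, a lysosomal membrane protein. Their summed raw FPKM was 25158 to 37871 in wild type, 14614 to 30412 in the HMGN1 libraries and 16020 to 18327 in Ts1Rhr, and none of the 18 was at 0 throughout. In bulk RNA, fewer cells of a type and less RNA per cell cannot be told apart. With the mean log2 level of these markers as a covariate, Il10rb was at -0.20 (SE 0.26, adjusted p = 0.616) on normalised FPKM and at -0.46 (SE 0.27, adjusted p = 1.00) on raw FPKM, where it was not called. The median of all genes was 0.45 in the normalised covariate fit, against 0.12 without the covariate, and 0.02 in the raw one, and both covariate fits called 0 of 10878 genes. The raw-FPKM covariate fit was added after the data were seen. The covariate did not overlap between wild type (6.21 to 6.69) and Ts1Rhr (5.21 to 5.67) on raw FPKM. Nor did it on normalised FPKM (6.02 to 6.97 against 5.12 to 5.68). The covariate fits thus cannot well separate marker level from genotype, and no conclusion is drawn from them.

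Library by library, the mean log2 marker level was 6.69, 6.21 and 6.33 in wild type, 5.88, 6.30 and 5.39 in the HMGN1 libraries, and 5.67, 5.56 and 5.21 in Ts1Rhr. The library with the most marker RNA, wild-type replicate 1, also had the most Il10rb. Ts1Rhr replicates 1 and 2 had 52.5 and 42.5 raw FPKM of Il10rb, while HMGN1 replicate 3, whose marker level was below both, had 59.99. By raw FPKM, Ts1Rhr replicate 3 had the lowest marker level and the most Il10rb of its group. By normalised FPKM, Ts1Rhr replicate 1 had both the highest marker level (5.68) and the most Il10rb of that group. Ifngr1 in HMGN1 replicate 2, whose marker level lay within the wild-type range, read 82.7 raw FPKM, close to the wild-type libraries, against 66.7 and 63.1 in the other HMGN1 libraries. Il10ra was highest in Ts1Rhr replicate 2 (35.2 raw FPKM) and lowest in HMGN1 replicate 3 (23.9), and both of those had marker levels below the wild-type range.

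Other marker lists differed too. Of 13 pro-B cell markers 11 were higher in Ts1Rhr (median 0.53 on normalised FPKM, none called), beside a median of 0.12 for all genes. On raw FPKM, where 4.29% of all genes were called higher, 5 rose, among them Rag2 and Dntt. In the HMGN1 libraries 12 of 13 were higher on normalised FPKM (median 0.61, none called), beside a median of 0.21 for all genes. Stromal markers summed to 28.1 to 52.6 raw FPKM in wild type, 2.51 to 7.36 in the HMGN1 libraries and 2.92 to 7.30 in Ts1Rhr. The 3 tested ones fell in Ts1Rhr on both tables. Of all genes, 0.147% were called lower there on normalised and 4.56% on raw FPKM. Their normalised FPKM calls in Ts1Rhr were lost without Ts1Rhr replicate 2 or wild-type replicate 3. In the HMGN1 libraries 2 of the 3 fell on normalised and 1 on raw FPKM. Shares of all genes called lower there were 0.0827% and 0.0368%. Neutrophil markers summed to 153 to 254 in wild type, 60.7 to 209 in the HMGN1 libraries and 66.1 to 165 in Ts1Rhr. None of 7 was called in either mutant group. Erythroid markers summed to 36.5 to 55.5 in wild type, 55.4 to 91.9 in the HMGN1 libraries and 90.9 to 118 in Ts1Rhr. Car2, the 1 tested gene, rose in Ts1Rhr, and Hba-a1 and Hbb-b1 were listed at 0 in every library. The part of these cells in the Il10rb result was not tested.

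**Figure D5:**
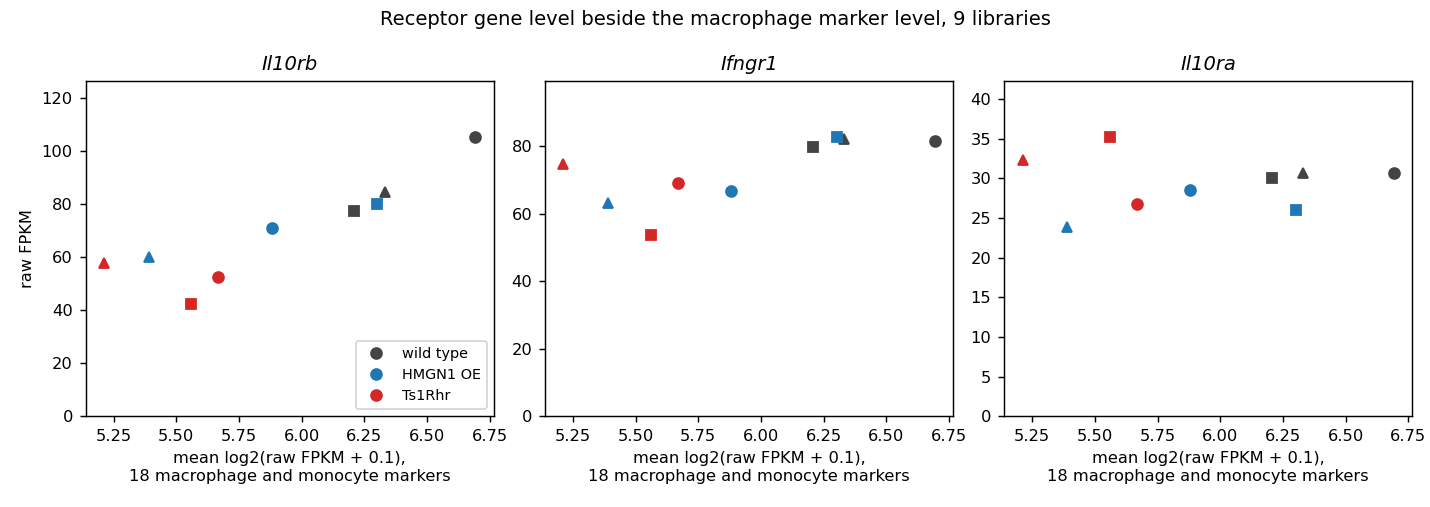
Raw FPKM of Il10rb, Ifngr1 and Il10ra against the mean log2(raw FPKM + 0.1) of 18 macrophage and monocyte markers in each of 9 libraries, coloured by group, with circle, square and triangle for replicates 1, 2 and 3. Wild-type replicate 1 has both the highest marker level (6.69) and the most Il10rb (105), while the highest Il10ra (35.2) is in Ts1Rhr replicate 2 at a marker level of 5.56.

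HMGN1 overexpression against wild type asks whether the receptor RNA of that group differs. Strain may differ between these groups as well. The Hmgn1 row, from alignment to a mouse build, read 1.2-fold higher on raw FPKM, and whether it counts all of the extra Hmgn1 RNA was not tested. No member was called on either table, where 0.0919% of genes were called on normalised and 0.0368% on raw FPKM. The normalised FPKM of the HMGN1 libraries, replicates 1 to 3, were 16.5, 25.9 and 19.5 for Ifnar1, 53.2, 75.0 and 46.4 for Ifnar2, and 30.3, 64.4 and 34.3 for Ifngr2. They were 69.6, 112 and 62.0 for Il10rb, 65.5, 116 and 65.2 for Ifngr1, and 26.7, 35.6 and 25.3 for Il10ra. Replicate 2 was the highest of its group for every member. The median log2 normalised FPKM of all tested genes was also highest there, 4.09 against 3.49 and 3.78 in replicates 1 and 3. All 6 members overlapped with wild type, where 17.4% of genes did not.

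The log2 fold changes on normalised FPKM lay between -0.20 (Il10rb, SE 0.30) and 0.03 (Ifnar1, SE 0.24), with adjusted p of 0.805 to 0.970. The median was -0.06, and that of all genes 0.21. By raw FPKM all 6 were lower, as were 48.3% of all genes, from -0.34 (Il10rb, SE 0.17) to -0.16 (Ifnar1, SE 0.12), with adjusted p of 0.385 to 0.559, and Ifnar1, Ifnar2 and Il10ra did not overlap with wild type, a pattern that 8.25% of genes showed in that direction. Ifnar1 thus changed sign between the tables. Il10rb was lower in Ts1Rhr than in the HMGN1 libraries too, without overlap (log2 fold change -0.67, SE 0.30, adjusted p = 0.988 on normalised FPKM; -0.47, SE 0.17, adjusted p = 0.541 on raw FPKM). In that comparison 0 members and 0 genes were called by limma on either table, with 475 genes at an unadjusted p under 0.05 on normalised and 963 on raw FPKM, and 6.6% and 5.99% of genes lower without overlap.

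The ligands of these receptors were nearly silent in the cultures. Of 15 interferon and interleukin-10 family ligand genes with a row, 13, Ifnb1 among them, were listed at 0 in all 9 libraries. The other 2, Ifng and Il10, peaked at 1.16 and 0.229 raw FPKM. Of the other class II receptors only F3, the coagulation tissue factor, was tested (log2 fold change -0.37 in Ts1Rhr and -0.43 in HMGN1 libraries on normalised FPKM, neither called). Ifnlr1, which pairs with Il10rb to bind interferon-lambda, reached at most 0.919 raw FPKM.

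Downstream, the JAK and TYK2 kinases, the STAT proteins and IRF9 did not pass the test in either mutant group. In Ts1Rhr 3 of 7 were higher and 4 lower, with a median of -0.08, beside 0.12 for all genes, and no call. Jak1 had the largest change, -0.24 on normalised FPKM (adjusted p = 0.656). In the HMGN1 libraries 5 were higher and 2 lower on normalised FPKM, where 27.3% of all genes were lower. The list's median was 0.07, below the 0.21 of all genes. Stat2 (0.40) and Irf9 (0.34) led, and none was called.

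Of 21 tested genes induced by type I interferon, from 28 listed, 10 were higher and 11 lower in Ts1Rhr on normalised FPKM, with a median of -0.08 and none called. On raw FPKM 7 were higher and 14 lower, with a median of -0.18. The medians of all genes were 0.12 on normalised and 0.01 on raw FPKM, and 40.1% and 48.9% of all genes were lower. Over all genes 8.85% were called on raw FPKM. Zbp1, a nucleic acid sensor, was at -1.85 (adjusted p = 0.215) and Xaf1 at 1.15 (adjusted p = 0.213). On raw FPKM only Bst2, which tethers enveloped viruses, fell (-1.20, SE 0.29, adjusted p = 0.0371, from 17.2, 16.4 and 19.2 to 9.04, 6.27 and 7.72 raw FPKM). Of 19 tested interferon-gamma targets of 23, 15 were higher and 4 lower on normalised FPKM (median 0.29), none called, with Gbp5 at 0.84 (adjusted p = 0.148). On raw FPKM the guanylate-binding protein Gbp7 rose (0.90, SE 0.22, adjusted p = 0.0373, from 15.9, 22.6 and 23.6 to 37.7, 48.3 and 30.8).

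Interleukin-10 targets were the list with the lowest median in Ts1Rhr among the signalling lists. On normalised FPKM, where 40.1% of all genes were lower, 10 of 11 tested targets were lower (median -0.54, none called). On raw FPKM, where 48.9% of all genes were lower and 4.56% were called lower, all 11 were lower (median -0.73) and 4 fell. Those were Il4ra, a chain of the interleukin-4 receptor (-0.73, adjusted p = 0.0328), Socs3, a feedback inhibitor of cytokine signalling (-1.05, adjusted p = 0.0350), Sbno2 (-0.62, adjusted p = 0.0362) and the haem-degrading enzyme Hmox1 (-0.88, adjusted p = 0.0456). On normalised FPKM their adjusted p were 0.311, 0.211, 0.278 and 0.165. Socs3 read 4.44, 5.81 and 5.56 raw FPKM in wild type and 2.55, 1.93 and 3.08 in Ts1Rhr, without overlap. Fcgr1 is on this list and on the macrophage list. The macrophage marker values given for Il10rb apply beside these genes too, and their part in them was not tested.

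The negative regulators, of which Socs3 is one, were higher for 7 of 10 in Ts1Rhr on normalised FPKM, where 40.1% of all genes were lower. Their median was 0.28, beside 0.12 for all genes, and on raw FPKM 0.05, beside 0.01. No call was made on normalised FPKM, and Socs3 was the 1 that fell on raw FPKM. In the HMGN1 libraries no gene of these lists was called on either table. Their medians on normalised FPKM were 0.15 for type I targets, 0.37 for interferon-gamma targets, 0.25 for negative regulators and -0.27 for interleukin-10 targets, beside 0.21 for all genes. Among them Psmb9, an immunoproteasome subunit, was at 0.93, Isg15, a ubiquitin-like modifier, at 0.70, Cish at 0.97 and Hmox1 at -0.61, none past the test.

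Finally, each receptor gene was set beside the tested genes whose log2(raw FPKM + 0.1) followed it most closely over the 9 libraries, by Pearson r among 10877 genes. These r include the differences between groups and are given as a description. Il10rb was followed by Renbp (r = 0.990), Tspan4 (0.990) and H2-D1, a class I histocompatibility gene (0.989). Renbp averaged 89.4, 67.6 and 45.5 raw FPKM in wild type, HMGN1 and Ts1Rhr libraries, the same descending order as Il10rb. For Ifngr1 they were Ghdc (0.962), Tm6sf1 (0.960) and Fuca1 (0.948), for Ifnar1 Diap2 (0.952), Rnf111 (0.946) and Tm2d1 (0.934), and for Ifnar2 Snx13 (0.981), Arf3 (0.957) and Aktip (0.953). For Ifngr2 they were BC003331 (0.985), Tmem5 (0.963) and Spryd7 (0.960), and for Il10ra Gnb1 (0.925), Slamf7 (0.922) and Exoc5 (0.918). No gene was shared between the 6 sets of 3, and none of the 18 was itself a receptor gene of the cluster.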

How the data were processed

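RNA from equal numbers of cells per sample received 1 µl of ERCC spike-in RNA, diluted 1 in 1000, per the labels' protocols. The tools were HISAT and Cufflinks 2.0.0 and the build was mm9, per the submitters' processing notes, without settings or annotation. The authors deposited raw FPKM and a normalised FPKM table whose method is not stated in the labels. Normalised values already hold about 0.1.

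Groups came from the labels. Of 23398 rows, 92 spike-in rows and 27 rows with date names were left out. Genes that averaged at least 1 raw FPKM were tested with limma 3.58.1 (R 4.3.3, intensity trend, 9 libraries, a mean per group, two-sided, Benjamini-Hochberg over 10878 genes, threshold 0.05) on log2 normalised FPKM, with log2(raw FPKM + 0.1) as the alternative. Folds on these scales understate the change of low genes. The fit was tested on simulated data. Chain ratios used exact permutation tests. Depth is unknown, since no common step of 1 read was found among low values. Named genes were the members, the called genes of each list (at most 4, or the 2 with the largest change where none was called), the nearest neighbours and the 3 most alike genes. Single values of a few genes that this rule or the marker lists name are not reported here. Members and lists were chosen with earlier results of these data known. RefSeq (GRCm38.p6, not the files' build) gave gene order and start-site windows only. The labels name no batch. Equal replicate numbers did not pair samples.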

Additional observations from a re-analysis of the deposited data

How the results depend on the processing

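The number of members called in Ts1Rhr against wild type was 0 on normalised FPKM, 1 on raw FPKM and 1 with the same median in every library, Il10rb in each case. Under the other 18 alternatives it was 0, and in the comparisons that involve the HMGN1 libraries it was 0 under all 20. Equal replicate numbers did not deviate together (correlations of -0.13 to 0.16 on normalised FPKM), and with a replicate block Il10rb was at -0.87 (adjusted p = 0.128) and 0 members were called. Il10rb in Ts1Rhr kept its direction under all 20 alternatives, from -1.08 to -0.20, with adjusted p of 0.0325 to 1.00.

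Small differences changed sign. In Ts1Rhr, 1 spike-in factor per library gave 0.039 for Ifnar1 and 0.013 for Ifnar2, with the median of all genes at 0.18. The macrophage covariate gave 0.36 for Ifnar1, 0.35 for Ifnar2, 0.47 for Ifngr2 and 0.17 for Ifngr1, where the median of all genes was 0.45, so Ifngr2 alone of these was above it. On raw FPKM the covariate gave 0.061 for Ifnar2 and 0.19 for Ifngr2, with a median of all genes of 0.023. The same median gave -0.072 for Il10ra. In the HMGN1 libraries Ifnar1 was at -0.16 on raw FPKM, -0.18 with the same median, -0.089 with 1 spike-in factor and -0.11 on raw FPKM with the covariate. The covariate gave 0.17 for Ifnar2, 0.10 for Ifngr2, 0.075 for Il10rb, 0.16 for Ifngr1 and 0.10 for Il10ra, all 5 below the median of all genes, 0.34. The 1 spike-in factor and normalised covariate values thus came with a shift of all genes. The cause of the other sign changes was not tested.

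With 1 library left out at a time, Ts1Rhr values ranged from -0.18 to 0.073 for Ifnar1, -0.40 to 0.033 for Ifnar2, -0.35 to 0.0135 for Ifngr2 and -0.064 to 0.18 for Il10ra. HMGN1 values ranged from -0.15 to 0.18 for Ifnar1, -0.26 to 0.17 for Ifnar2, -0.50 to 0.043 for Ifngr2, -0.45 to 0.084 for Il10rb, -0.34 to 0.091 for Ifngr1 and -0.20 to 0.071 for Il10ra. Among chain ratios, the type I receptor ranged from -0.066 to 0.079 in Ts1Rhr and -0.036 to 0.12 in HMGN1 libraries, the interferon-gamma receptor from -0.25 to 0.055 in Ts1Rhr, and the interleukin-10 receptor from -0.0089 to 0.22 in HMGN1 libraries. The interleukin-10 receptor ratio in Ts1Rhr stayed between 0.63 and 0.98.

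The sequencing depth behind each value is unknown. Alternatives chosen after the data were seen were the raw-FPKM fits with the covariate and with libraries left out, and the left-out fits of the listed genes.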
